A study of Mus musculus with 30 samples.

Results

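Genes that mark the stem cell zone at the base of the colonic crypt were followed through colon and colon tumors of wild-type mice and mice lacking spermine oxidase. The set holds 10 genes, chosen by symbol as markers of intestinal stem and crypt-base cells: Lgr5, Ascl2, Smoc2, Ephb2, Ephb3, Cd44, Prom1, Lrig1, Tnfrsf19 and Msi1. The choice was made with earlier results of these data known. All 10 were found among the 31023 genes of the count table, and all 10 passed the filter on low counts that kept 19558 genes for testing.

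The lining of the colon is folded into crypts, and the stem cells that renew it sit at the crypt base. Wnt ligands, reinforced by R-spondins, keep these cells dividing, and cells that move up the crypt leave the Wnt signal and mature into absorptive colonocytes and mucus-making goblet cells. Many crypt-base markers, among them Lgr5, Ascl2, Ephb2, Ephb3, Cd44 and Tnfrsf19, are known targets of β-catenin and TCF factors, the nuclear end of the Wnt pathway. Tumors induced in mice by azoxymethane commonly carry mutations that activate β-catenin.

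The samples were colonic tissues of male C57BL/6 mice, aged 8 to 12 weeks, that were Smox-/- or wild-type (WT). Smox encodes spermine oxidase, which turns spermine into spermidine with release of hydrogen peroxide. AOM-DSS mice were given the carcinogen azoxymethane (AOM) at 12.5 mg/kg. They then drank 4% dextran sulfate sodium (DSS), an agent that damages the gut epithelium, in 3 cycles that began on days 5, 26 and 47 and lasted 5 days. Spermidine was given at 14 mM in drinking water for 56 days. Day 56 was recorded for every library, with and without AOM-DSS. The 2 tumor groups were Smox-/- mice after AOM-DSS and WT mice after AOM-DSS with spermidine, so genotype and spermidine differ together between them. Non-tumor colon after AOM-DSS came from Smox-/- and WT mice, each with and without spermidine. Colon without AOM-DSS came from the same 4 combinations of genotype and spermidine. Each of the 10 groups had 3 libraries, from 3 mice per group in the study's description. The labels do not say whether tumor and non-tumor samples came from the same mice, which part of Smox was removed, or whether the pieces held muscle.

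Library totals ran from 33060607 to 81011304 counts. Smox transcripts were present in all 15 libraries labelled Smox-/-, at 18.6 to 68.7 CPM (the count of a gene relative to the scaled size of its library), against 25.1 to 169 CPM in the 15 WT libraries. Smox was lower in Smox-/- than in WT libraries without overlap with spermidine alone (18.6 to 26.6 against 43.7 to 49.4 CPM), after AOM-DSS (26.1 to 35.8 against 41.8 to 50.7 CPM) and in tumors, where spermidine differed too (44.0 to 68.7 against 123 to 169 CPM). The genotypes overlapped in untreated colon (27.4 to 36.2 against 25.1 to 27.6 CPM) and after AOM-DSS with spermidine (23.2 to 63.1 against 46.6 to 54.1 CPM). A set of 12 pan-epithelial genes summed to between 12066 and 23116 CPM in every library. In Smox-/- spermidine AOM-DSS non-tumor colon, replicate 1 lay at 61.8 on the first principal component, against -70.9 to 18.4 in the other non-tumor libraries. It was above Smox-/- tumor replicate 3 (43.0) and below the other tumors (92.7 to 111). Its Paneth genes, at 957 CPM, were within the tumor range of 527 to 3348 CPM. Each library of its group had at least 4168.5 CPM colonocyte and 8156 CPM goblet genes, against at most 2825 and 4219 CPM in tumors. Replicate 3 of untreated WT colon held 7824 CPM of skeletal muscle transcripts, and its distal hindgut position genes summed to 15.7 CPM, against 676 and 740 CPM in the other libraries of its group. In bulk tissue, fewer cells of a type and less RNA per cell cannot be told apart.

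The members fall into 4 kinds by role. Lgr5 (ENSMUSG00000020140.15, GRCm38 chromosome 10, 115450311 to 115587780, minus strand) encodes a receptor for R-spondins and is the best known marker of cycling crypt-base stem cells. Tnfrsf19 (ENSMUSG00000060548.13, chromosome 14, 60963875 to 61046490, minus strand), also called Troy, encodes a receptor of the tumor necrosis factor family. Lrig1 (ENSMUSG00000030029.14, chromosome 6, 94604529 to 94700158, minus strand) encodes a membrane protein that restrains ErbB receptors. Ephb2 (ENSMUSG00000028664.14, chromosome 4, 136647539 to 136835988, minus strand) and Ephb3 (ENSMUSG00000005958.15, chromosome 16, 21204755 to 21223305, plus strand) encode receptors for ephrin-B ligands that keep cells at their level of the crypt.

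Ascl2 (ENSMUSG00000009248.6, chromosome 7, 142966829 to 142969264, minus strand) encodes a transcription factor of stem cell identity. Msi1 (ENSMUSG00000054256.11, chromosome 5, 115429599 to 115455698, plus strand) encodes Musashi, an RNA-binding protein that represses translation. Smoc2 (ENSMUSG00000023886.10, chromosome 17, 14279506 to 14404790, plus strand) encodes a secreted matrix protein. Cd44 (ENSMUSG00000005087.17, chromosome 2, 102811141 to 102901665, minus strand) encodes a hyaluronan receptor and lies on the same chromosome as Smox. Prom1 (ENSMUSG00000029086.15, chromosome 5, 43993620 to 44102032, minus strand) encodes prominin, a protein of membrane protrusions that in the colon is also made above the crypt base. The exons of Prom1 share 424 bases (5.9%) with Gm16401, and those of Lrig1 share 144 bases (2.6%) with Slc25a26, both on the opposite strand. The library kit keeps strand, but how strand was used in counting is not given in the sources used here.

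The RefSeq promoter windows used here, on GRCm38.p6, covered 7 of the 10 members, Ascl2, Ephb2, Ephb3, Cd44, Prom1, Lrig1 and Tnfrsf19. Printed below are 250 bases upstream of the start, 5′ to 3′ on the gene's strand, for 4 genes whose window lies wholly outside the annotated transcript. They are shown because 3 of these genes were called higher in tumors and Ephb2 was not. The windows are chr7:142969265-142969514 for Ascl2, chr14:61046856-61047105 for Tnfrsf19, chr2:102901666-102901915 for Cd44 and chr4:136836013-136836262 for Ephb2, all on the minus strand. Capitals mark matches, on either strand, to the 8 motifs searched.
Ascl2: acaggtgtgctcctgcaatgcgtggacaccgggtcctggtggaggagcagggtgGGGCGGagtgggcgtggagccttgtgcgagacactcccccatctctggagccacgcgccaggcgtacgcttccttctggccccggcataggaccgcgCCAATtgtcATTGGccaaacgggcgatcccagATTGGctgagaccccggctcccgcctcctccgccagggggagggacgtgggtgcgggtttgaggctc
Tnfrsf19: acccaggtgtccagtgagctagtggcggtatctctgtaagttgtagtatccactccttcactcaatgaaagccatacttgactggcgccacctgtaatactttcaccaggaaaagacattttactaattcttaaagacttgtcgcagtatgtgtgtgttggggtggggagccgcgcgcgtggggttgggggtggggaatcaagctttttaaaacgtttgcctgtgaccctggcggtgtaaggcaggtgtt
Cd44: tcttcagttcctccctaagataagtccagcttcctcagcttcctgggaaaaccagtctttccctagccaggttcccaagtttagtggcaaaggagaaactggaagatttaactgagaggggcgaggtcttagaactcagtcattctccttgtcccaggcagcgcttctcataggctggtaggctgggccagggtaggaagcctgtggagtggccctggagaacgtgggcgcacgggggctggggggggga
Ephb2: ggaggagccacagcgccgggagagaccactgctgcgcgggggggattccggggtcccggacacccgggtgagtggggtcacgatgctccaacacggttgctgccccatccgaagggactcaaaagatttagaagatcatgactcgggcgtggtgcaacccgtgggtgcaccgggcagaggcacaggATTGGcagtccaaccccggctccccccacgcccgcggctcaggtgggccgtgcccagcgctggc

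Both strands were searched. The motifs were 3 forms of the TCF/LEF site, of which the first was CTTTGAT, the second was CTTTGTT and the third was CTTTGAA. The others were 2 E-boxes, one being CAGCTG and the other being CACGTG, with the TATA box motif TATAAA, the CCAAT box and the GC box motif GGGCGG. None of the 3 TCF/LEF forms was found in the 7 windows of the members. Among the windows of all 32851 promoters in the table, 12% held at least 1 of the 3. Ascl2 had 3 CCAAT matches, at 99, 90 and 67 bases before the start, and 1 GC box at 196 bases, and Ephb2 had 1 CCAAT match at 64 bases. CCAAT occurred in 33.8% and GGGCGG in 32.7% of all windows. The windows of Tnfrsf19 and Cd44 held no match. A match is only a run of letters, and its absence says nothing of factors bound outside these 250 bases.

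The levels of the members differed widely. Per kilobase of merged exon, the mean level over the 10 groups was 48.1 CPM for Prom1, 24.0 for Lrig1, 10.02 for Smoc2, 8.35 for Cd44, 8.17 for Ephb2, 7.90 for Ephb3 and 7.39 for Ascl2. Tnfrsf19 averaged 2.86 CPM per kilobase, Lgr5 2.50 and Msi1 0.552. Prom1 thus held the highest level per length of the 10, and its group means ran from 15.7 to 72.0 CPM per kilobase, while those of Lgr5 ran from 0.122 to 8.87. Counts behind the lowest values were small: Msi1 had 8 counts in its lowest library, Tnfrsf19 17 and Lgr5 22. The highest libraries of these 3 genes held 1358, 5125 and 9105 counts.

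**Figure D1:**
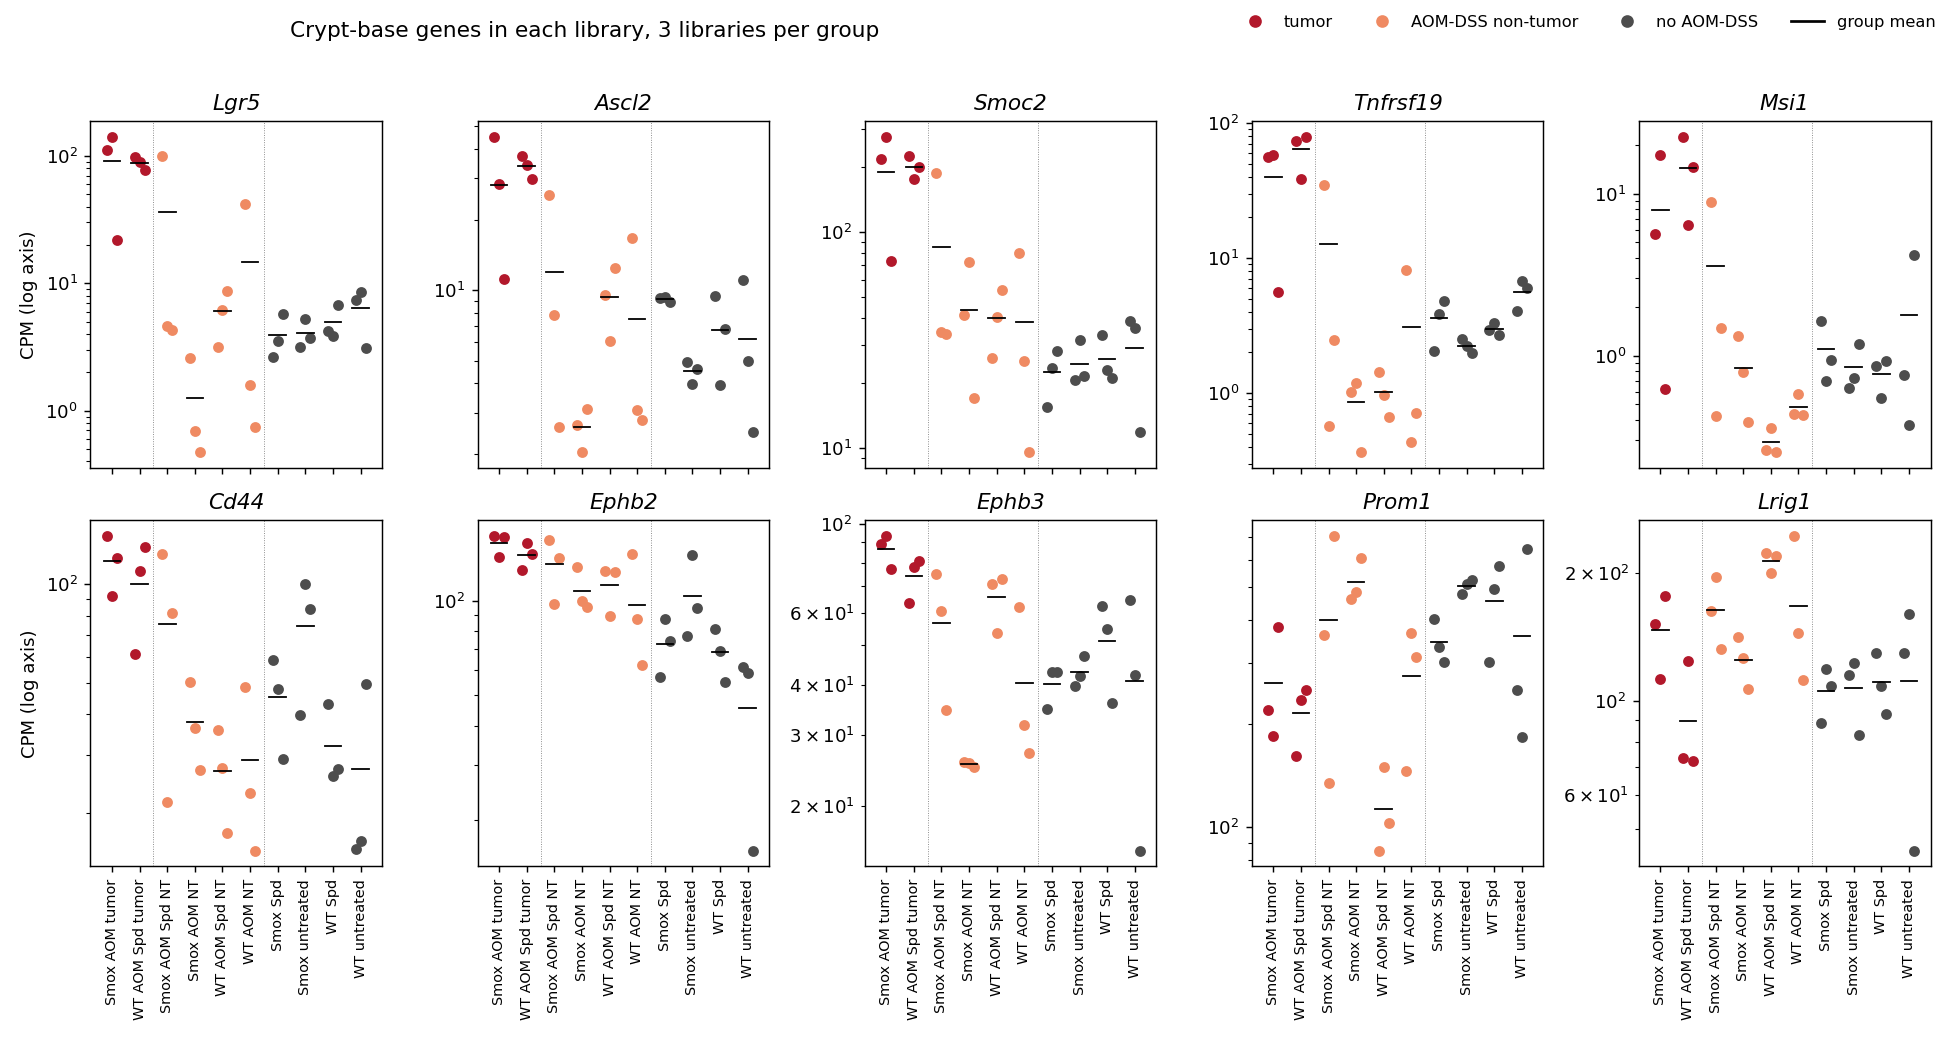
Level of each member in every library, in CPM on a log axis, by group; points are libraries, coloured by tumor, AOM-DSS non-tumor (NT) and no AOM-DSS, and lines are group means. Lgr5, Smoc2, Tnfrsf19 and Cd44 were higher in the 6 tumors than in all 6 libraries of the matched non-tumor groups, while Ascl2, Ephb2, Ephb3, Msi1, Prom1 and Lrig1 overlapped.

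The main comparison set tumors against non-tumor colon of mice with the same genotype and drink. Averaged over the 2 pairs of groups, 7 of the 10 members rose in tumors and none fell (edgeR quasi-likelihood test with Benjamini-Hochberg adjustment over all genes, adjusted p under 0.05). Over all genes tested 47.3% were called, 23.5% as higher in tumors. Because the members were chosen with earlier results of these data known, their count is not independent support. The genes that rose were Lgr5, Ascl2, Smoc2, Tnfrsf19, Msi1, Cd44 and Ephb3, and those not called were Ephb2, Prom1 and Lrig1. The median log2 fold change was 1.99 over the members and 0.00 over all genes. The 6 tumors lay above the 6 non-tumor libraries without overlap for 4 members, Lgr5, Smoc2, Cd44 and Tnfrsf19, as did 9.21% of all genes.

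Lgr5, the R-spondin receptor, had 111, 140 and 21.7 CPM in Smox-/- tumors, against 2.58, 0.691 and 0.474 CPM in Smox-/- non-tumor colon. It had 97.0, 89.8 and 77.9 CPM in WT spermidine tumors, against 3.19, 6.13 and 8.73 CPM in WT spermidine non-tumor colon. Every tumor stood above every non-tumor library of these groups, with replicate 3 of the Smox-/- tumors the lowest tumor. The log2 fold change was 5.03 (SE 0.91, 32.6-fold, edgeR adjusted p = 0.000179), at means of 89.6 CPM in tumors and 3.63 CPM in non-tumor colon.

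Tnfrsf19, the tumor necrosis factor family receptor, moved the most of the 10. It had 56.1, 58.2 and 5.59 CPM in Smox-/- tumors, against 1.02, 1.19 and 0.366 CPM in Smox-/- non-tumor colon. In WT spermidine tumors it had 74.0, 38.4 and 78.7 CPM, against 1.44, 0.970 and 0.667 CPM in WT spermidine non-tumor colon. The groups did not overlap, and the Smox-/- tumor lowest for Lgr5 was lowest here too. The rise was 53.2-fold (log2 5.73, SE 0.87, edgeR adjusted p = 4.4e-05).

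Ascl2, the stem cell transcription factor, had 44.9, 28.5 and 11.1 CPM in Smox-/- tumors, against 2.65, 2.04 and 3.10 CPM in Smox-/- non-tumor colon. It had 37.4, 34.3 and 29.7 CPM in WT spermidine tumors, against 9.52, 6.08 and 12.4 CPM in WT spermidine non-tumor colon. Within each pair the groups were apart, although 1 WT non-tumor library exceeded the lowest Smox-/- tumor. The rise was 6.26-fold (log2 2.65, SE 0.51, edgeR adjusted p = 0.000285).

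Smoc2, the secreted matrix protein, had 217, 274 and 72.9 CPM in Smox-/- tumors, against 41.0, 72.6 and 17.1 CPM in Smox-/- non-tumor colon. WT spermidine tumors had 225, 176 and 200 CPM, against 26.0, 40.3 and 53.7 CPM in WT spermidine non-tumor colon. The tumors stood above the non-tumor libraries throughout, though replicate 3 of the Smox-/- tumors exceeded the highest Smox-/- non-tumor library by less than 1 CPM. The rise was 4.65-fold (log2 2.22, SE 0.50, edgeR adjusted p = 0.00117).

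Msi1, the RNA-binding protein, had 5.65, 17.4 and 0.618 CPM in Smox-/- tumors, against 1.33, 0.795 and 0.388 CPM in Smox-/- non-tumor colon. In WT spermidine tumors it had 22.3, 6.40 and 14.6 CPM, against 0.261, 0.360 and 0.254 CPM in WT spermidine non-tumor colon. Replicate 3 of the Smox-/- tumors lay within the range of the Smox-/- non-tumor libraries, and the other 5 tumors lay above it. Averaged over both pairs Msi1 rose 21.4-fold (log2 4.42, SE 0.76, edgeR adjusted p = 0.000113), and the log2 change was 3.75 without replicate 2 of the Smox-/- tumors.

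Cd44, the hyaluronan receptor, had 141, 91.8 and 120 CPM in Smox-/- tumors, against 50.3, 36.3 and 27.0 CPM in Smox-/- non-tumor colon. It had 61.3, 110 and 130 CPM in WT spermidine tumors, against 35.8, 27.4 and 17.4 CPM in WT spermidine non-tumor colon. Neither pair overlapped, and the Smox-/- tumor that was lowest for the stem cell genes was not low for Cd44. The rise was 3.41-fold (log2 1.77, SE 0.39, edgeR adjusted p = 0.000956).

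The ephrin receptors moved less. Ephb3 had 89.2, 93.3 and 77.4 CPM in Smox-/- tumors, against 25.7, 25.6 and 25.0 CPM in Smox-/- non-tumor colon. In WT spermidine tumors it had 63.7, 78.0 and 80.6 CPM, against 70.8, 53.8 and 72.8 CPM in WT spermidine non-tumor colon. The Smox-/- pair was far apart and the WT pair overlapped, and the averaged rise was 1.96-fold (log2 0.97, SE 0.25, edgeR adjusted p = 0.00315). Ephb2 had 161, 137 and 159 CPM in Smox-/- tumors, against 128, 99.4 and 95.3 CPM in Smox-/- non-tumor colon. It had 125, 153 and 140 CPM in WT spermidine tumors, against 125, 89.4 and 124 CPM in WT spermidine non-tumor colon. Its lowest tumor stood just above the highest non-tumor library of its pair in both pairs, and the averaged log2 fold change of 0.41 (SE 0.25) was not called (edgeR adjusted p = 0.177).

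Prom1 and Lrig1 departed from the rest. Prom1 had 219, 184 and 383 CPM in Smox-/- tumors, against 460, 484 and 606 CPM in Smox-/- non-tumor colon. In WT spermidine tumors it had 161, 235 and 251 CPM, against 85.3, 150 and 103 CPM in WT spermidine non-tumor colon. The Smox-/- tumors thus lay below their non-tumor libraries and the WT tumors above theirs, and neither difference was called (log2 -0.98, SE 0.47, adjusted p = 0.123 in Smox-/- and log2 0.93, SE 0.47, adjusted p = 0.127 in WT, edgeR). The averaged log2 change was -0.02 (adjusted p = 0.968). In a fit of only the groups compared the WT difference was called (log2 0.94, edgeR adjusted p = 0.0198). It was called too with pan-epithelial scaling, a setting chosen after seeing the data. The Smox-/- difference was called without 3 atypical libraries (log2 -1.35, edgeR adjusted p = 0.0329), also chosen after seeing the data. Of these only Smox-/- tumor replicate 3, the tumor with the highest Prom1 (383 CPM), is in this comparison.

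Lrig1, the ErbB restraint, had 152, 113 and 177 CPM in Smox-/- tumors, against 142, 126 and 107 CPM in Smox-/- non-tumor colon. It had 73.4, 124 and 72.1 CPM in WT spermidine tumors, against 222, 200 and 219 CPM in WT spermidine non-tumor colon. The Smox-/- groups overlapped, and the WT groups lay apart with the tumors lower. Lrig1 fell in the WT tumors (log2 -1.25, SE 0.34, 2.38-fold lower, edgeR adjusted p = 0.00725) and was not called in the Smox-/- tumors (log2 0.24, adjusted p = 0.624) or on average (log2 -0.51, SE 0.23, adjusted p = 0.0794). The averaged fall was called without replicate 2 of the WT tumors (log2 -0.66, edgeR adjusted p = 0.0300) and in 3 other alternatives. When libraries were scaled to the 12 pan-epithelial genes, a setting chosen after seeing the data, the WT change was -0.66 and no longer called (adjusted p = 0.169).

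**Figure D2:**
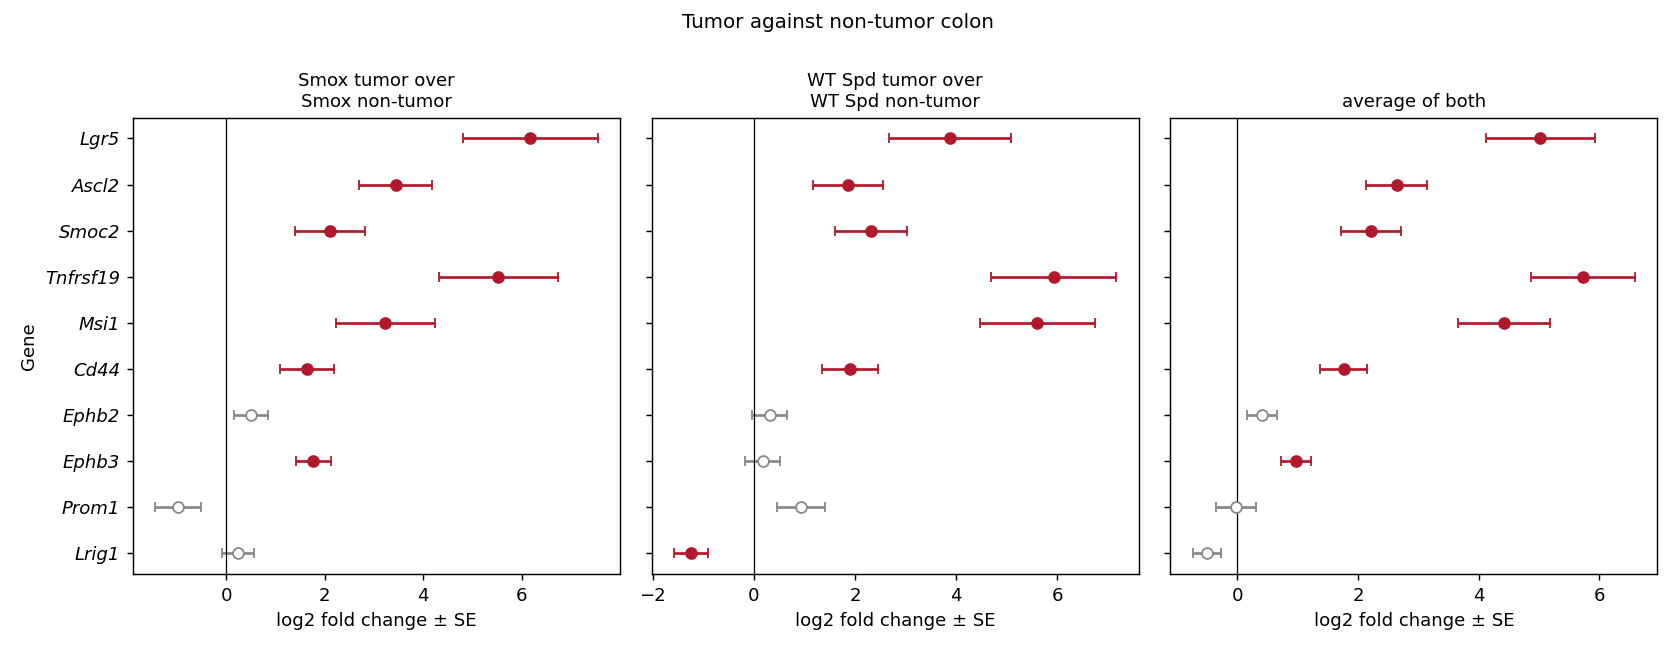
Log2 fold change of each member, tumor over non-tumor colon, with its SE, in Smox-/- mice, in WT spermidine mice and averaged; filled red points passed the adjusted p of 0.05, open points did not. Lgr5, Tnfrsf19, Ascl2, Smoc2, Msi1 and Cd44 passed in both pairs, Ephb3 in Smox-/- only and Lrig1, as a fall, in WT only.

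Within Smox-/- mice, 7 members rose and none fell, where 24.6% of all genes were called and 11.4% were called higher. Lgr5 rose 72.2-fold (log2 6.17, SE 1.36, edgeR adjusted p = 0.00619), Tnfrsf19 46.1-fold (adjusted p = 0.00610), Ascl2 10.8-fold (adjusted p = 0.00576), Msi1 9.38-fold (adjusted p = 0.0257) and Smoc2 4.32-fold (adjusted p = 0.0345). Ephb3 rose 3.41-fold (log2 1.77, SE 0.36, adjusted p = 0.00487) and Cd44 3.11-fold (adjusted p = 0.0350). The calls of Smoc2, Cd44 and Msi1 depended on single libraries. Smoc2 was no longer called without Smox-/- non-tumor replicate 1 or 3 or tumor replicate 1 or 2, and Cd44 and Msi1 without non-tumor replicate 2 or 3 or tumor replicate 1 or 2. Their log2 fold changes stayed positive, at 1.74 or more for Smoc2, 1.47 or more for Cd44 and 1.90 or more for Msi1. Lgr5 kept its call throughout, at log2 changes of 5.72 to 7.30, the highest without non-tumor replicate 1. Smoc2 reached 2.70 without non-tumor replicate 2, and the lowest Msi1 value was that without tumor replicate 2.

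In WT spermidine mice, 6 members rose and Lrig1 fell, where 34.4% of all genes were called, 16.9% as higher and 17.5% as lower. The rises were 61.3-fold for Tnfrsf19 (edgeR adjusted p = 0.00139), 48.9-fold for Msi1 (adjusted p = 0.00115), 14.7-fold for Lgr5 (log2 3.88, SE 1.21, adjusted p = 0.0176), 5.00-fold for Smoc2 (adjusted p = 0.0158), 3.74-fold for Cd44 (adjusted p = 0.0119) and 3.62-fold for Ascl2 (adjusted p = 0.0421). Ephb3 was not called, at a log2 fold change of 0.17 (SE 0.35, adjusted p = 0.734). Ascl2 lost its call without any 1 of the 6 libraries, Lgr5 without WT non-tumor replicate 1 or 2, Smoc2 without replicate 1 and Cd44 without replicate 3. Without them the log2 fold change was 1.64 or more for Ascl2, 3.60 or more for Lgr5, 2.12 for Smoc2 and 1.67 for Cd44.

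The tests of the difference between the 2 tumor effects called no member. Only 0.0102% of all genes were called, and 2282 of the 19558 genes had an unadjusted p under 0.05. The 3 members among them were Ephb3 (Smox-/- minus WT log2 difference 1.60, SE 0.50, edgeR adjusted p = 0.257), Lrig1 (1.49, SE 0.47, adjusted p = 0.262) and Prom1 (-1.91, SE 0.66, adjusted p = 0.297). DESeq2 also called none, but a fit of only the groups compared called Ephb3 (log2 difference 1.61, edgeR adjusted p = 0.00929). The difference for Ephb3 thus depended on the libraries in the fit, and that for Lrig1 was called in no alternative. Set directly against each other, Smox-/- and WT spermidine tumors differed in no member by edgeR or DESeq2 and in 0.0614% of all genes by edgeR. The member with the smallest p was Lrig1, at 147 ± 32.4 CPM in Smox-/- tumors and 89.8 ± 29.6 CPM in WT spermidine tumors (SD, n = 3 each, edgeR adjusted p = 0.856), the 1 member with an unadjusted p under 0.05. Among all genes, 1098 of 19558 had an unadjusted p under 0.05 between the tumor groups.

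Other genes of the crypt and the Wnt pathway moved in the same comparison. Of 18 further stem and crypt genes, 11 rose and 3 fell in tumors (median log2 fold change 1.01). Sox4, a transcription factor of progenitors, had 497 CPM in tumors and 77.5 CPM in non-tumor colon (6.27-fold, edgeR adjusted p = 3.36e-05). Tert, the catalytic subunit of telomerase, rose 3.28-fold and Zbtb38, a zinc finger repressor, 2.07-fold, whereas Aldh1b1, a mitochondrial aldehyde dehydrogenase known from crypt-base cells, fell 3.83-fold to 54.4 CPM in tumors, against 217 CPM in non-tumor colon. Olfm4, a crypt-base marker of the human colon named after its values were seen, stayed under 1 CPM in both groups, at 0.474 and 0.183 CPM in tumors and non-tumor colon.

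All 13 Wnt target genes rose (median log2 fold change 3.61). This list, like the others, was chosen with earlier results of these data known, so its count is not independent support. Axin2, a feedback inhibitor of β-catenin, had 371 CPM in tumors and 34.3 CPM in non-tumor colon (11.8-fold, edgeR adjusted p = 4.92e-05). Sp5, a transcription factor, rose 205-fold, Apcdd1, an inhibitor at the Wnt receptor, 206-fold, and Wif1, a secreted Wnt inhibitor, 283-fold. Of 15 proliferation genes 4 rose and none fell (median 0.61). These were Pcna (1.79-fold), Mcm2 (2.49-fold), Rrm2 (1.91-fold) and Mcm5 (2.06-fold), genes of DNA replication. Mki67, the usual proliferation marker and named after its values were seen, had 218 CPM in tumors and 211 CPM in non-tumor colon (adjusted p = 0.728).

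Among partners of the members more genes fell than rose. Of 16 ligands and interacting proteins, 4 rose and 9 fell (median log2 fold change -0.55). Efnb1, an ephrin-B ligand of Ephb2 and Ephb3, fell 1.91-fold, with 87.4 CPM in tumors and 167 CPM in non-tumor colon (edgeR adjusted p = 8.55e-05). Rspo3, a ligand of Lgr5 made by stromal cells, had 0.431 CPM in tumors and 2.51 CPM in non-tumor colon, and Rspo2 had 0.0111 and 0.286 CPM in the same order. Numb, whose mRNA is a target of Musashi, fell 1.45-fold, a change smaller than the log2 shift of 0.58 by which scaling to the pan-epithelial genes moved the median of all genes. The median of this list was smaller than that shift too.

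Among 13 paralogs of the members, 5 rose and 4 fell (median log2 fold change 0.26). Lgr6, a close relative of Lgr5 known from skin stem cells, had 21.5 CPM in tumors and 0.0449 CPM in non-tumor colon (edgeR adjusted p = 6.87e-05). Prom2 had 5.53 CPM in tumors and 0.0182 CPM in non-tumor colon. Lgr4, the R-spondin receptor that is found along the whole crypt, fell 1.85-fold to 137 CPM in tumors, against 263 CPM in non-tumor colon, and Lrig3 fell 3.78-fold.

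Genes of other cell types moved along with the members, and their part in the members' changes was not tested. The 12 pan-epithelial genes, of which 1 rose and 8 fell, summed to 12066 to 16860 CPM in the 6 tumors and 14688 to 21631 CPM in the 6 non-tumor libraries. Of 13 colonocyte genes 11 fell and none rose (median log2 fold change -2.67), with Car4 38.3-fold and Slc26a3 37.2-fold lower. Of 8 goblet genes 7 fell (median -1.74), with Zg16 18.2-fold and Clca1 11.8-fold lower. The 9 smooth muscle genes all fell (median -3.20) and summed to 49.1 to 1102 CPM in tumors and 949 to 4543 CPM in non-tumor colon. Of 10 genes of enteric neurons and glia 8 fell, and of 8 fibroblast genes 2 fell.

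The 7 Paneth genes all rose (median log2 fold change 7.55), among them Lyz1, at 1167 CPM in tumors and 6.22 CPM in non-tumor colon. Their sum was 527 to 3348 CPM in tumors and 13.7 to 86.9 CPM in non-tumor colon. Of 10 squamous genes 8 rose (median 4.51), with sums of 58.4 to 657 CPM in tumors and 2.06 to 12.6 CPM in non-tumor colon. The Paneth and squamous lists were chosen with earlier results of these data known. In WT spermidine non-tumor replicate 3, 2 of the Paneth and 4 of the squamous genes were at 0. Of 7 distal hindgut position genes 4 rose, at sums of 493 to 632 CPM in tumors and 230 to 960 CPM in non-tumor colon. Within pairs 4 position genes rose in Smox-/- tumors and none was called in WT tumors, and the test of the difference between the 2 tumor effects called none of the 7 (edgeR). Among immune and vascular lists, 2 of 9 macrophage genes and 1 of 6 neutrophil genes rose, 1 of 10 T and NK cell genes and 1 of 8 skeletal muscle genes fell, and none of 7 endothelial genes was called.

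**Figure D3:**
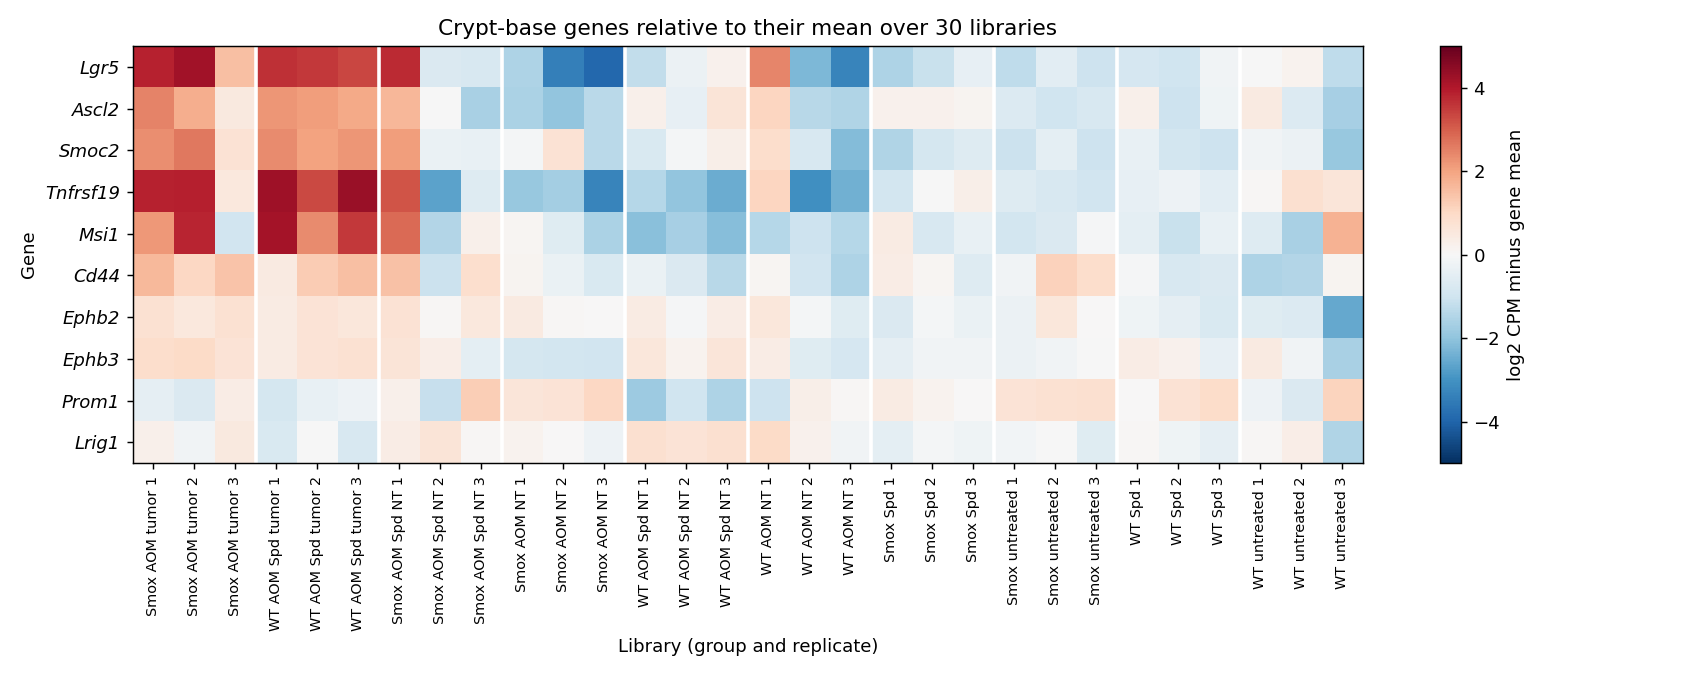
Log2 CPM of each member minus its mean over the 30 libraries, with libraries as columns by group and members as rows. In Smox-/- spermidine AOM-DSS non-tumor colon, replicate 1 (100 CPM Lgr5) is coloured like the tumors, and in the Smox-/- tumors, replicate 3 (21.7 CPM Lgr5) is the palest tumor for Lgr5, Ascl2, Smoc2, Tnfrsf19 and Msi1.

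Single libraries set the spread of the members. In Smox-/- spermidine AOM-DSS non-tumor colon, replicate 1 reached at least the lowest tumor level for 10 of 10 members, with 100 CPM Lgr5, 25.5 CPM Ascl2, 188 CPM Smoc2, 34.8 CPM Tnfrsf19 and 8.88 CPM Msi1. The other libraries of that group had 4.59 and 4.31 CPM Lgr5. Its Paneth genes summed to 957 CPM, against 17.9 and 25.9 CPM in those 2 libraries. In WT AOM-DSS non-tumor colon without spermidine, replicate 1 reached the lowest tumor level for 6 members, Ascl2, Ephb2, Lgr5, Lrig1, Smoc2 and Tnfrsf19. It had 41.5 CPM Lgr5, against 1.59 and 0.752 CPM in the other libraries of its group, and its Paneth genes summed to 333 CPM. The remaining 22 non-tumor libraries reached the lowest tumor level for 1 to 5 members, and none of these 22 did so for Lgr5. Both high libraries are outside the non-tumor groups of the tumor comparison. The lowest tumor level is a low bar for some members: for Msi1 it was 0.618 CPM, within the range of the Smox-/- non-tumor libraries. Prom1 and Lrig1 did not rise in tumors on average, so reaching it for them does not mark a library as like the tumors. The share of all genes that reached this level was not computed.

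The group means of Lgr5, ordered by mean log2 CPM, were 88.2 ± 9.64 CPM in WT spermidine tumors and 91.1 ± 61.8 CPM in Smox-/- tumors, then 36.4 ± 55.3 CPM in Smox-/- spermidine AOM-DSS non-tumor colon (SD, n = 3 each). Untreated WT colon (6.35 ± 2.86 CPM) and WT spermidine AOM-DSS non-tumor colon (6.02 ± 2.77 CPM) came next. WT colon with spermidine alone had 4.94 ± 1.58 CPM, untreated Smox-/- colon 4.04 ± 1.09 CPM and Smox-/- colon with spermidine alone 3.95 ± 1.60 CPM. The lowest means on the log scale were 14.6 ± 23.3 CPM in WT and 1.25 ± 1.16 CPM in Smox-/- AOM-DSS non-tumor colon without spermidine. Neighbours in this order below the tumors overlapped, and the 4 groups without AOM-DSS lay within 2.62 to 8.53 CPM.

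Over the 10 groups, the genes nearest to Lgr5 in pattern were Gm45889, Wnt3, Nfe2l3, Dach1 and Vwa2, with root mean square differences of 0.47, 0.53, 0.55, 0.56 and 0.62 between centred mean log2 CPM. Wnt3 encodes a Wnt ligand, and Nfe2l3 and Dach1 encode transcription regulators. Among the members Tnfrsf19 was nearest, at 0.74 and rank 25 of 19557 genes, followed by Ascl2 at 0.96, Msi1 at 1.03 and Smoc2 at 1.06. Cd44 (1.42), Ephb3 (1.46) and Ephb2 (1.69) were farther, and Lrig1 (1.97, rank 11104) and Prom1 (2.24, rank 15377) were farther than many genes outside the set. Ephb2 and Ephb3 were nearest to each other, at 0.50. These distances rest on the same libraries as the tumor comparison, and the tumor groups give most of the spread.

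AOM-DSS was next compared with no AOM-DSS in non-tumor colon. Averaged over the 4 pairs of groups, 2 of 10 members rose and none fell (edgeR), where 20.9% of all genes were called and 8.69% were called higher. Ephb2 averaged 112 CPM after AOM-DSS and 72.6 CPM without it (log2 0.68, SE 0.17, edgeR adjusted p = 0.00902). Lrig1 averaged 167 CPM after AOM-DSS and 109 CPM without it (log2 0.60, SE 0.17, adjusted p = 0.0141). Both kept their call in all 32 alternatives, and both overlapped between the 12 libraries of each side. The 2 calls are 20% of the members, against 20.9% of all genes called in either direction and 8.69% called higher.

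The stem cell genes that rose in tumors were not called here. Lgr5 averaged 14.6 CPM after AOM-DSS and 4.82 CPM without it (log2 0.75, SE 0.55, edgeR adjusted p = 0.351), with 100 and 41.5 CPM in the pair of high libraries. Smoc2 averaged 51.8 CPM after AOM-DSS and 25.3 CPM without it (log2 0.95, adjusted p = 0.0516), Prom1 326 and 417 CPM (log2 -0.54, adjusted p = 0.103) and Tnfrsf19 4.40 and 3.61 CPM (log2 -0.48, adjusted p = 0.531). Smoc2 was near the threshold and was called in 10 of 32 alternatives, DESeq2 among them (log2 0.94, adjusted p = 0.0230). When replicate 3 of Smox-/- spermidine AOM-DSS non-tumor colon was left out, 4 members were called instead of 2, with Smoc2 higher and Prom1 lower. Without replicate 1 of that group, the library with 100 CPM Lgr5, the log2 change of Tnfrsf19 was -1.24 and called (edgeR adjusted p = 0.0478). Among the other lists 3 of 18 stem and crypt genes rose, Sox4, Slc12a2 and Mex3a, and 3 of 13 Wnt targets rose, Ccnd1, Notum and Wif1.

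Genes of other cell types moved with AOM-DSS in the same averaged comparison. All 8 skeletal muscle genes fell (median log2 fold change -5.39), with sums of 4.22 to 15.1 CPM after AOM-DSS and 17.5 to 7824 CPM without it. Of 10 squamous genes 8 fell (median -5.78), with sums of 2.06 to 96.7 CPM after AOM-DSS and 3.74 to 2771 CPM without it. Of the smooth muscle genes 5 of 9 fell, of enteric neuron and glia genes 5 of 10, of colonocyte genes 5 of 13, of T and NK cell genes 3 of 10 and of position genes 4 of 7, with 1 position gene higher. Of 6 neutrophil genes 5 rose (median 2.46), with sums of 23.8 to 294 CPM after AOM-DSS and 1.27 to 143 CPM without it. Of 8 goblet genes 5 rose (median 0.83), with sums of 3989 to 20463 CPM after AOM-DSS and 2588 to 10632 CPM without it, and 3 of 7 Paneth genes rose. The part of these cell types in the changes of Ephb2 and Lrig1 was not tested.

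Taken pair by pair, AOM-DSS left few members called when all groups were fitted together. In WT spermidine mice Prom1 fell, with 85.3, 150 and 103 CPM after AOM-DSS and 302, 494 and 574 CPM without it. The groups lay apart, and the log2 change was -2.02 (SE 0.48, edgeR adjusted p = 0.0346), where 1.91% of all genes were called and 1.48% were called lower. The call ended without any 1 of the 3 AOM-DSS libraries or without replicate 2 or 3 of the mice that drank spermidine alone, where the log2 change was -1.84 to -2.32. In WT mice without spermidine edgeR called no member and 6.44% of all genes. An unadjusted p under 0.05 was found for 4819 of the 19558 genes and for 1 member, Ephb2. It had 141, 87.3 and 62.6 CPM after AOM-DSS and 61.3, 58.9 and 16.0 CPM in untreated colon (log2 1.10, edgeR adjusted p = 0.0594). DESeq2 called 1 member there.

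In Smox-/- mice without spermidine edgeR called no member for AOM-DSS, where 0.0767% of all genes were called. DESeq2 called none either, and 1 member was under 0.05 in edgeR before adjustment, as were 2533 of the 19558 genes. With spermidine, edgeR called no member and 0.0205% of all genes. DESeq2 called 1 member, and 3 were under 0.05 in edgeR before adjustment, as were 3193 of the 19558 genes. The difference between the AOM-DSS effects in Smox-/- and WT mice without spermidine was called for no member by edgeR or DESeq2. For this difference edgeR called 0% of all genes, and 1 member and 3088 of the 19558 genes had an unadjusted p under 0.05. Lgr5 stood at 2.58, 0.691 and 0.474 CPM in Smox-/- mice after AOM-DSS, against 3.17, 5.26 and 3.69 CPM in untreated Smox-/- colon. Those AOM-DSS libraries were all below the untreated ones, without a call.

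**Figure D4:**
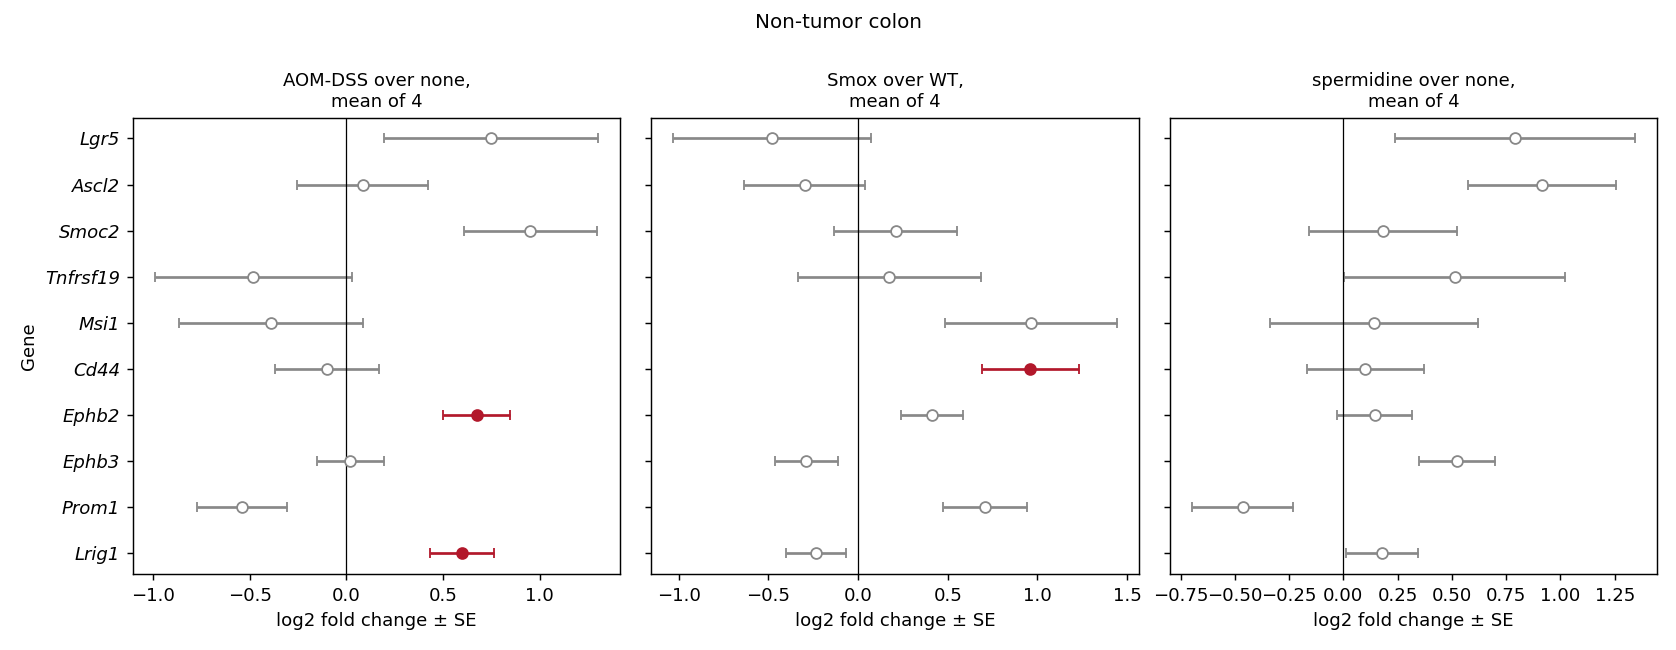
Log2 fold change of each member in non-tumor colon with its SE, for AOM-DSS over none, Smox-/- over WT and spermidine over none, each averaged over 4 pairs of groups; filled red points passed the adjusted p of 0.05. Ephb2 (0.68) and Lrig1 (0.60) passed for AOM-DSS, Cd44 (0.96) for Smox-/-, and no member for spermidine.

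Loss of Smox was compared over the same 8 non-tumor groups. Averaged over 4 pairs, Cd44 rose in Smox-/- colon and no other member was called by edgeR, where 5.78% of all genes were called and 3.75% were called higher. Untreated Smox-/- colon had 39.6, 100 and 83.9 CPM Cd44, against 15.5, 16.4 and 49.6 CPM in untreated WT colon. With spermidine it had 58.7, 47.8 and 29.2 CPM in Smox-/- colon, against 42.9, 25.8 and 27.2 CPM in WT colon. The groups overlapped in both settings. After AOM-DSS Cd44 had 50.3, 36.3 and 27.0 CPM in Smox-/- colon, against 48.4, 23.0 and 15.3 CPM in WT colon, and with AOM-DSS and spermidine 123, 21.5 and 81.9 CPM in Smox-/- colon, against 35.8, 27.4 and 17.4 CPM in WT colon.

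The averaged Cd44 change was 1.94-fold (log2 0.96, SE 0.27, edgeR adjusted p = 0.0377), at means of 58.3 CPM in Smox-/- and 28.7 CPM in WT colon. It was near the threshold: 19 of 32 alternatives ended the call, at log2 changes of 0.81 to 1.15 over all 32. Leaving out a single library ended it for replicates 1 and 2 of untreated WT and 2 and 3 of untreated Smox-/- colon, and for 2 and 3 of WT and 1 and 2 of Smox-/- colon with spermidine. After AOM-DSS it ended for replicates 2 and 3 of WT and 1 and 2 of Smox-/- colon, and with spermidine added for 2 and 3 of WT and 1 and 3 of Smox-/- colon. Prom1 averaged 442 CPM in Smox-/- and 301 CPM in WT colon (log2 0.71, SE 0.23, adjusted p = 0.0744), and was called without the WT library rich in skeletal muscle transcripts (log2 0.88, edgeR adjusted p = 0.0157) or without replicate 2 of Smox-/- spermidine AOM-DSS non-tumor colon (log2 0.79, adjusted p = 0.0216). Markers of immune cells moved with genotype too, with 4 of 9 macrophage, 4 of 6 neutrophil and 3 of 10 T and NK cell genes higher in Smox-/- colon, and their part in the Cd44 change was not tested. Cd44 also lies on the same chromosome as Smox, and whether this bears on its change was not tested. Hoxd10, Hoxd11, Hoxd12 and Hoxd13, 4 of 7 position genes, were lower in Smox-/- colon. Of the other stem and crypt genes 1 of 18 rose, Olfm4, at 0.418 CPM in Smox-/- and 0.0648 CPM in WT colon, and of the Wnt targets 2 of 13 rose, Ccnd1 and Sp5.

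In untreated mice 1 member was called, Ephb2, where 5.95% of all genes were called and 2.63% were called higher. It had 77.3, 139 and 94.4 CPM in Smox-/- colon, against 61.3, 58.9 and 16.0 CPM in WT colon, without overlap (log2 1.19, SE 0.35, edgeR adjusted p = 0.0469). The lowest of these was the WT library rich in skeletal muscle transcripts, and without it the log2 change was 0.81 and not called (adjusted p = 0.145). The call also ended without Smox-/- replicate 2 or 3. Of 10 enteric neuron and glia genes 7 fell in the same comparison (median log2 fold change -2.86), with sums of 27.7 to 54.2 CPM in untreated Smox-/- colon and 116 to 437 CPM in untreated WT colon. Genes called higher in Smox-/- colon were 3 of 10 squamous, 3 of 6 neutrophil, 2 of 9 macrophage, 2 of 8 goblet and 1 of 7 Paneth genes. Squamous genes summed to 6.22, 108 and 2771 CPM in untreated Smox-/- colon, with 1 library far above the others, against 3.74 to 30.7 CPM in untreated WT colon. The part of these cell types in the Ephb2 change was not tested. Between Smox-/- and WT colon no member was called by edgeR with spermidine alone (0.0818% of all genes), after AOM-DSS (0.0665%) or after AOM-DSS with spermidine (0.251%). Unadjusted p values under 0.05 were counted for 0, 2 and 5 members in these 3 comparisons, and for 1882, 1640 and 2773 of the 19558 genes. DESeq2 called 0, 0 and 3 members. These percentages are not the shares of all genes called by DESeq2. Prom1 had the smallest adjusted p of the last comparison, with 362, 134 and 705 CPM in Smox-/- colon, against 85.3, 150 and 103 CPM in WT colon (log2 1.83, SE 0.48, edgeR adjusted p = 0.0864). When Smox-/- replicate 2 was left out there, 3 members were called, Prom1, Tnfrsf19 and Msi1.

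For spermidine, edgeR called no member in any comparison. Averaged over 4 pairs of groups 0% of all genes were called and DESeq2 called no member. An unadjusted p under 0.05 was found for 2448 of the 19558 genes and for 2 members. These were Ascl2, at 9.30 CPM with spermidine and 5.21 CPM without it (log2 0.91, SE 0.34, edgeR adjusted p = 0.271), and Ephb3, at 53.5 and 37.4 CPM (log2 0.52, SE 0.18, adjusted p = 0.238). Without AOM-DSS, no member had an unadjusted p under 0.05 or a DESeq2 call in WT (0.00511% of all genes called) or Smox-/- colon (0%). Among all genes, 3152 in WT and 1825 in Smox-/- colon had an unadjusted p under 0.05. After AOM-DSS edgeR called 0% of all genes in WT and in Smox-/- colon. There 1 member in WT and 5 in Smox-/- colon were under 0.05 before adjustment, as were 1109 and 2676 of the 19558 genes. DESeq2 called 0 members in WT and 4 in Smox-/- colon. The percentages here are from edgeR and are not the shares of all genes called by DESeq2.

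The 4 DESeq2 calls in Smox-/- AOM-DSS colon were Lgr5, Ascl2, Ephb3 and Tnfrsf19, and the spermidine group there holds the library with 100 CPM Lgr5. Lgr5 had 100, 4.59 and 4.31 CPM with spermidine, against 2.58, 0.691 and 0.474 CPM without it (log2 4.85, SE 1.29, edgeR adjusted p = 0.178). Tnfrsf19 had 34.8, 0.574 and 2.49 CPM with spermidine, against 1.02, 1.19 and 0.366 CPM without it. The Lgr5 groups lay apart and the Tnfrsf19 groups overlapped. The difference between the spermidine effects in Smox-/- and WT colon without AOM-DSS was called for no member by edgeR or DESeq2. For this difference edgeR called 2.91% of all genes, and 1 member and 3977 of the 19558 genes had an unadjusted p under 0.05. Comparisons that use the same group share its libraries, so the calls above are not independent of each other.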

How the data were processed

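Bulk RNA of mouse colon was sequenced in 30 libraries, 10 groups of 3. The authors deposited estimated counts (expected counts) per gene as whole numbers, in 1 table of 31023 genes. The submitters' processing notes name fastp, Salmon, DESeq2 and GRCm38, and per the labels' protocols libraries were made with a directional kit; versions and the counting annotation are not given in the sources used here. The members and lists were chosen with earlier results of these data known. Members were matched by symbol and other genes by identifier.

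Counts were fitted with edgeR 4.0.16 in R 4.3.3 (TMM scaling, filterByExpr with minimum count 10 and minimum total 15, robust quasi-likelihood, 1 mean per group, 20 residual degrees of freedom), with Benjamini-Hochberg adjustment across 19558 genes in each of 22 comparisons, at a threshold of 0.05. A gene rose or fell where it passed. Percentages of all genes called come from the main edgeR fit, so counts of members from DESeq2 or other alternatives have no share beside them. SE is on the log2 scale. With 3 libraries a side no exact permutation test can go below 0.1. Spread covers counting error and differences between samples. Alternatives were RLE scaling, DESeq2 1.42.0, other filters (none, or 1 CPM in 3 libraries), fewer groups or libraries and, chosen after seeing the data, scaling to pan-epithelial genes and leaving out 3 atypical libraries. Members were named where called. From each list up to 4 called genes with the smallest adjusted p were eligible, and exceptions are stated. Nearest genes were the 5 closest to Lgr5. Gene models were GENCODE vM21. The procedure was tested on simulated counts drawn from the mean levels and spread of these data, with few genes changed. That test does not cover scaling where many genes change, or single atypical libraries.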

Additional observations from a re-analysis of the deposited data

How the results depend on the processing

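The 7 calls in tumors averaged over both pairs held in all 20 alternatives (log2 4.80 to 5.64 for Lgr5, 5.55 to 6.34 for Tnfrsf19), and no called fold change reversed. Of the fold changes of called members, 400 alternatives kept the call and 60 ended it. Without the low-count filter Smoc2 and Cd44 in Smox-/- tumors and Ascl2 in WT tumors were not called, and with only the groups compared Smoc2 and Msi1 in Smox-/- tumors were not. Scaling to pan-epithelial genes moved the median of all genes in tumors by 0.58 and the split of calls to 9981 higher of 12097, against 4587 higher of 9253, and Ephb2 was then called as well. In the averaged tumor comparison 7 to 9 members were called. A fit of only the groups compared called 9, adding Ephb2 higher (log2 0.41, edgeR adjusted p = 0.00849) and Lrig1 lower (-0.50, adjusted p = 0.0181), and leaving out 2 or 3 atypical libraries called 8, adding Lrig1. When no single library was left out, 5 to 8 members were called in Smox-/- tumors and 6 to 8 in WT tumors, where Prom1 was the member added in Smox-/- tumors as a fall and in WT tumors as a rise. When 1 library was left out, the numbers of members called were 7 to 8 in tumors on average, 4 to 7 in Smox-/- tumors, in WT tumors 4 to 6, for AOM-DSS on average 2 to 4, for AOM-DSS in WT 0 to 1 and in WT with spermidine 0 to 1, for Smox-/- on average 0 to 2, in untreated mice 0 to 1, and after AOM-DSS with spermidine 0 to 3. For AOM-DSS in WT, RLE scaling, the 1 CPM filter and DESeq2 each called 1. For AOM-DSS in WT with spermidine, leaving out 2 or 3 atypical libraries called 2, and fitting only the groups compared called 5. That fit added Ephb2 and Lrig1 as higher (log2 0.70 and 0.94) and Tnfrsf19 and Msi1 as lower (log2 -1.54 and -1.40). Fitting only the groups compared called 1 for AOM-DSS in Smox-/- and 1, Ephb3, for the difference between tumor effects. DESeq2 called 1 for AOM-DSS in Smox-/- with spermidine, 2 for Smox-/- on average, 3 for Smox-/- after AOM-DSS with spermidine and 4 for spermidine in Smox-/- after AOM-DSS. For Smox-/- on average, no filter, pan-epithelial scaling and only the groups compared called 0, and leaving out 2 or 3 atypical libraries called 3. For Smox-/- in untreated mice, no filter, pan-epithelial scaling, only the groups compared and leaving out 2 or 3 atypical libraries called 0. The cause was not tested. No paired analysis was possible because the titles carry only running library numbers and the labels do not pair samples across groups. Msi1 and Tnfrsf19 rest on few counts in non-tumor colon.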
